A study of Mus musculus with 15 samples.

Results

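Hippocampal transcripts were compared between mice that had lost both corticosteroid receptors and control mice with both receptors intact. The comparison took in every array of the groups titled GRMREmx1-cre (3 arrays) and dflox (4 arrays), 7 of the 15 arrays of the series. GRMREmx1-cre mice carry floxed alleles of the glucocorticoid receptor (GR, gene Nr3c1) and the mineralocorticoid receptor (MR, gene Nr3c2) together with Emx1-Cre, a recombinase line active in excitatory neurons and astrocytes of the dorsal forebrain. Dflox mice carry the floxed alleles of both genes without Cre. By the design as read here the groups therefore differ by Cre and by the loss of both receptors, and a Cre control without floxed alleles is not used here. All mice were C57BL/6 males of about 2.5 months, and RNA came from the whole hippocampus of both hemispheres, so that neurons and astrocytes of the Cre lineage were measured together with microglia, vessel cells and interneurons, which Emx1-Cre largely spares. The other 8 arrays (4 GREmx1-cre, lacking GR, and 4 MREmx1-cre, lacking MR) shared the estimate of spread. The 4 genotypes were hybridised on separate slides, 1 slide to a genotype, so that effects of slide and genotype cannot be told apart.

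GR and MR are nuclear receptors that bind corticosterone, the main corticosteroid of mice, move to the nucleus and bind the same DNA element, the hormone response element. MR binds the hormone with the higher affinity and is largely occupied at resting hormone levels, whereas GR is occupied as levels rise at the daily peak and in stress. The hippocampus is unusual among tissues in holding both receptors at high level in its pyramidal and granule neurons.

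Levels are log2 intensities relative to the 75th percentile of the same array, so that 0 is the intensity at that percentile, and differences are GRMREmx1-cre minus dflox on the log2 scale with the standard error (SE) of the fit. A gene is said to rise or fall where limma's adjusted p was below 0.05 over the 22864 genes tested. P-values measure the spread between the mice of a group. The 75th percentile of raw intensity ran from 911 to 1027 over the 7 arrays, and 28083 to 30112 probes per array were well above background. Log2 levels of pairs of arrays correlated at 0.9896 to 0.9919 within dflox, 0.9909 to 0.9924 within GRMREmx1-cre and 0.985 to 0.9871 between the groups (across genes, which are not independent replicates). Transcripts of excitatory neurons were measured, among them the kinase gene Camk2a (log2 level 5.18 to 6.12 over the 7 arrays) and the CA1 marker Wfs1 (3.92 to 4.72). These genes alone do not check the tissue label.

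The receptor transcripts were examined first. The Nr3c1 level was 1.5, 1.79, 1.77 and 1.49 on the dflox arrays and -0.08, -0.03 and 0.09 on the GRMREmx1-cre arrays, so that the groups were far apart. The transcript fell by more than its spread, to 32.1% (-1.64 ± 0.0838, adjusted p = 7.42e-07, n = 3 and 4), and the other Nr3c1 probes stood at -1.48, -1.34 and -1.16. The Nr3c2 level was -3.45, -3.36, -3.65 and -3.57 in dflox and -3.71, -3.72 and -4.01 in GRMREmx1-cre. The groups did not overlap, but the gap between them was small. The difference of -0.31 ± 0.0928 was called at an adjusted p of 0.0394. Leaving out dflox replicate 1, 2 or 4 or GRMREmx1-cre replicate 2 or 3 ended the call (-0.36 to -0.21), as did averaging the probes. The other Nr3c2 probes stood at -0.29 and -0.32 (limma's unadjusted p = 0.167 and 0.269). The sources used here do not give where the probes of either receptor gene sit relative to the deleted exons. A probe of a retained exon says nothing on the loss of the receptor, and the MR label is therefore unchecked by these data.

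Over all genes, 3716 of 22864 changed (16.3%), 2610 upward (11.4%) and 1106 downward (4.84%). Bright and dim genes gave different pictures. Bright genes, whose mean level over the 15 arrays was at or above the median of all genes (-1.43), changed in near balance: 1715 of 11432 were called (15%), 888 upward (7.77%) and 827 downward (7.23%), with a median difference of -0.01. Dim genes, those below that level, moved mainly upward: 2001 of 11432 were called (17.5%), 1722 upward (15.1%) and 279 downward (2.44%), with a median difference of 0.13. The excess of rises grew toward the dimmest genes. Ordered by brightness in bins of 5716 genes, the median difference was 0.24 in the dimmest bin (871 rises, 86 falls), 0.06 in the next (851 and 193), 0.00 in the one after (541 and 365) and -0.02 in the brightest (347 and 462). In the dimmest bin the 3 GRMREmx1-cre arrays lay 0.293, 0.22 and 0.21 above the dflox mean in the median gene, whereas the dflox arrays lay between -0.0886 and 0.0824. The cause of this shift was not tested, and it bears on every dim rise given below.

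The balance of rises and falls rested on the scaling. When each array was centred on its median instead, the median difference of all genes moved from 0.03 to -0.05 and the share of rises among the calls from 70.24% to 47.34% (1539 rises, 1712 falls). Among bright genes that scaling gave 341 rises and 1280 falls, a share of 21.04% against 51.78%. Quantile normalization lowered the share of rises among dim calls from 86.06% to 66.5% (1044 rises, 526 falls). Leaving out GRMREmx1-cre replicate 2 lowered the calls to 2265, with 1000 bright and 1265 dim, and leaving out GRMREmx1-cre replicate 3 lowered the bright calls to 1123. Normexp correction with the local background of each spot called 14111 genes and reversed 16 named genes, Nr3c2, Grem1, Tmem215, Tmprss6 and Npnt among them. With 1 median local background per array instead, normexp called 3583 genes. Changes of at least 1.5-fold were made by 103 bright genes upward and 141 downward, and by 1037 dim genes upward and 154 downward. For 202 of the dim calls, all in the dimmest bin, no array of the lower group was well above background, so that their fold is only a bound.

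**Figure D1:**
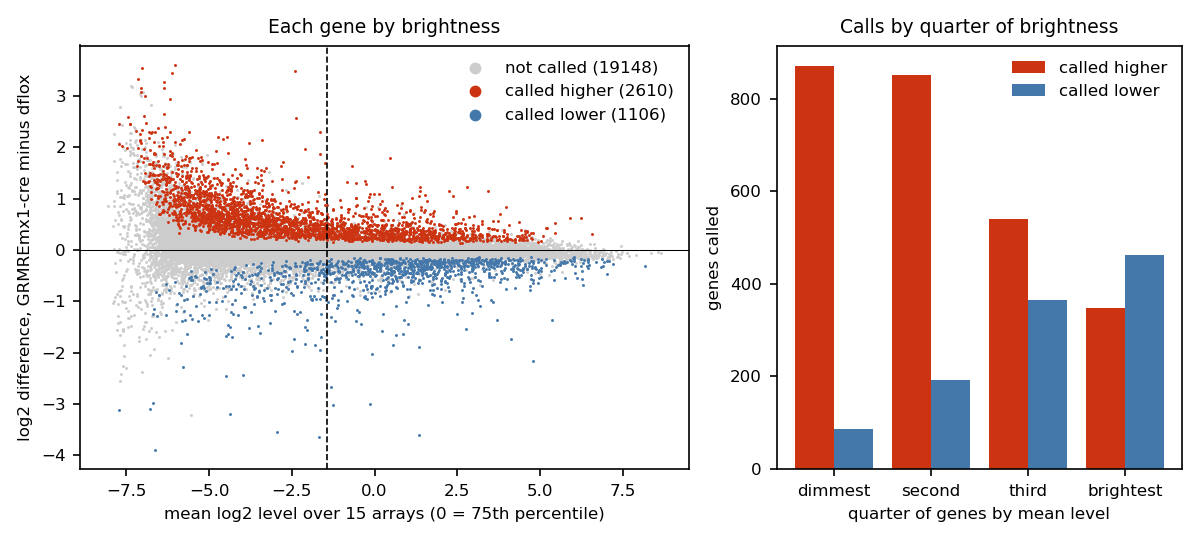
Left, each of the 22864 genes by its mean log2 level over the 15 arrays (horizontal) and its log2 difference, GRMREmx1-cre minus dflox (vertical), with called genes coloured and the bright and dim genes parted by the dashed line at -1.43. Right, genes called higher and lower in each bin of 5716 genes by brightness: rises go from 871 in the dimmest bin to 347 in the brightest, and falls from 86 to 462.

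Corticosteroid-induced genes, a list of 25 genes known to rise with the hormone in many tissues, were lower after the loss of both receptors. Like every list here, it was chosen with earlier results of these data known. Shares of list members called are therefore descriptions and not tests. Of 23 tested, 15 fell and 1 rose, against 4.84% and 11.4% of all genes, and the median difference was -0.49 against 0.03 for all genes. The mean level of the list ran from 1.14 to 1.21 on the dflox arrays and from 0.60 to 0.61 on the GRMREmx1-cre arrays, so that the groups did not overlap. The groups did not overlap in the means of several other lists either. Among these were the mitochondrial respiratory chain genes, at 4.86 to 4.93 in dflox and 4.8 to 4.82 in GRMREmx1-cre. With each of the 7 arrays left out in turn, 10 (without GRMREmx1-cre replicate 1) to 14 of the corticosteroid-induced genes fell, and 2 rose without dflox replicate 3 or GRMREmx1-cre replicate 3.

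The largest change of the list was that of Rasd1, a Ras-like GTPase first found as a dexamethasone-induced gene. Its level was 1.12, 0.95, 0.58 and 0.93 in dflox and -2.40, -2.37 and -1.54 in GRMREmx1-cre, an 8-fold fall (-3 ± 0.22, adjusted p = 9.74e-06). Fkbp5, the co-chaperone that dampens GR, is a dim gene on these arrays. It stood at -1.18, -1.58, -2.10 and -0.88 in dflox and at -3.29, -3.17 and -3.33 in GRMREmx1-cre (-1.83 ± 0.227, adjusted p = 0.000269), and its other probes stood at -1.45 and -2.11. The control arrays were spread over more than 1 log2 unit while the knockout arrays were nearly equal. Sgk1, the serum and glucocorticoid regulated kinase that controls ion transport, was at 3.98, 3.88, 4.10 and 3.31 in dflox and at 2.65, 2.67 and 2.87 in GRMREmx1-cre (-1.09 ± 0.193, adjusted p = 0.00243). Every knockout array lay below every control array for each of these 3 genes, as it lay wholly below or above in 29.4% of all genes.

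The promoters of the list were searched for the hormone response element, because its genes fell together. RefSeq promoter windows of build GRCm38.p6 covered 21 of the 25 genes with 31 windows, and the 250 bases before each start were read. The windows did not include Angptl4, Cebpd, Rasd1 or Zbtb16. The element, AGAACA followed after any 3 bases by TGTTCT, reads the same on both strands. It was present in 1 window of the list, in front of a start of Sgk1, and in 3 of 32841 windows of the whole table (0.00913%). Its core site TGTTCT, read on either strand and also counted inside the element, was present in 5 of the 31 windows (16.1%), of the genes Bcl6, Sgk1 and Tsc22d3, against 16.1% of all windows. The Sgk1 window is shown for the full element, which begins 189 bases before the start, and a Tsc22d3 window is shown for a core site alone, 185 bases before the start. The Sgk1 window is chr10:21993640-21993889 on the plus strand and the Tsc22d3 window is chrX:140600523-140600772 on the minus strand, both from the 5′ end of the gene's own strand, with the element and core sites in capitals.
Sgk1: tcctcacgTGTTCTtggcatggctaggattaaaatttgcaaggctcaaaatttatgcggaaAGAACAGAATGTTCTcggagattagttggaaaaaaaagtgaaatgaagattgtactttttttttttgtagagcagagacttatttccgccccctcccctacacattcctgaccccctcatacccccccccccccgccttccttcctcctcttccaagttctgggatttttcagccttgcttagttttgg
Tsc22d3: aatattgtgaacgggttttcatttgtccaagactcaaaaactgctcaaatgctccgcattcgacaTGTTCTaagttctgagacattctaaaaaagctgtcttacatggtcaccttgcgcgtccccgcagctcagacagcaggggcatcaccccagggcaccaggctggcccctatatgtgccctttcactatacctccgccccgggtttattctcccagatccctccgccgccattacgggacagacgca
A match is a description of these letters and does not show that a receptor binds there, and the files do not say from which start the probed transcript comes.

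The list also holds regulators of transcription. Cebpd, a C/EBP transcription factor, was at 2.98, 3.26, 2.79 and 2.86 in dflox and at 1.80, 1.84 and 1.53 in GRMREmx1-cre (-1.25 ± 0.192, adjusted p = 0.000998). The zinc finger repressor Bcl6 fell by 0.98 (adjusted p = 0.000966) and the Krüppel-like factors Klf9 and Klf15 fell by 0.49 and 0.54 (adjusted p = 0.00188 and 0.0118). The Klf15 call was lost without GRMREmx1-cre replicate 1 (-0.63 to -0.47 with each array left out) and with its probes averaged (-0.47). Tsc22d3, the glucocorticoid-induced leucine zipper, was at 1.80, 1.74, 1.75 and 2.04 in dflox and at 1.51, 1.42 and 1.5 in GRMREmx1-cre. Its fall of 0.36 on the log2 scale (adjusted p = 0.0345) was small and ended as a call when dflox replicate 1 or 4 or any 1 GRMREmx1-cre array was left out (-0.39 to -0.29).

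Among feedback inhibitors and stress proteins of the list, the EGF receptor inhibitor Errfi1 fell by 0.78 on the log2 scale (adjusted p = 0.000114), the mTOR inhibitor Ddit4 by 0.59 (adjusted p = 0.0103) and the metallothionein Mt1 by 0.53 (adjusted p = 0.000305). Mt1 was tightly grouped, at 5.2, 5.30, 5.19 and 5.28 in dflox and 4.59, 4.76 and 4.79 in GRMREmx1-cre. Mt2, a second metallothionein, stood at -0.24 (adjusted p = 0.134), with GRMREmx1-cre replicate 2 inside the dflox range. The NF-kappaB inhibitor Nfkbia fell by 0.46 (adjusted p = 0.0309), which ended as a call without dflox replicate 2 or 3 or any GRMREmx1-cre array (-0.55 to -0.35). The other fallers were all dim, namely Plekhf1 (-0.98, adjusted p = 0.0049), the lipid droplet protein Plin4 (-0.95, adjusted p = 0.0304) and Arrdc2 (-0.46, adjusted p = 0.0143). The Plin4 call rested on dflox replicates 1 and 4 and on each GRMREmx1-cre array (-1.14 to -0.79 with 1 array left out), and that of Arrdc2 was lost without GRMREmx1-cre replicate 1 or 3 (-0.54 to -0.39).

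The list was not uniform. Pdk4, the kinase that shuts off pyruvate dehydrogenase, rose from -0.53, -0.24, -0.32 and -0.59 in dflox to 0.23, 0.21 and -0.02 in GRMREmx1-cre (0.56 ± 0.125, adjusted p = 0.00898). Among the members not called, the clock gene Per1 stood at -0.41 (adjusted p = 0.225), the phosphatase Dusp1 at 0.27 (adjusted p = 0.422), the lipase inhibitor Angptl4 at 0.70 (adjusted p = 0.0622), Anxa1 at -0.27 (adjusted p = 0.387) and Crispld2 at 0.09 (adjusted p = 0.73). Hif3a stood at 0.57 (adjusted p = 0.0501), but its other probe stood at -0.63 (limma's unadjusted p = 0.00887), so the gene has no single direction here. Zbtb16 and Lcn2 did not pass the filter on dim probes. Of the 7 dim members 4 fell and 0 rose, beside 2.44% and 15.1% of all dim genes. The mean level that makes a gene dim includes the knockout arrays, so a fall itself can place a gene among the dim ones. Plekhf1 was above the cut of -1.43 on every dflox array but replicate 4 (-1.21 to -1.16, and -1.75 on replicate 4). The dflox levels of Fkbp5, given above, lay on both sides of that cut.

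**Figure D2:**
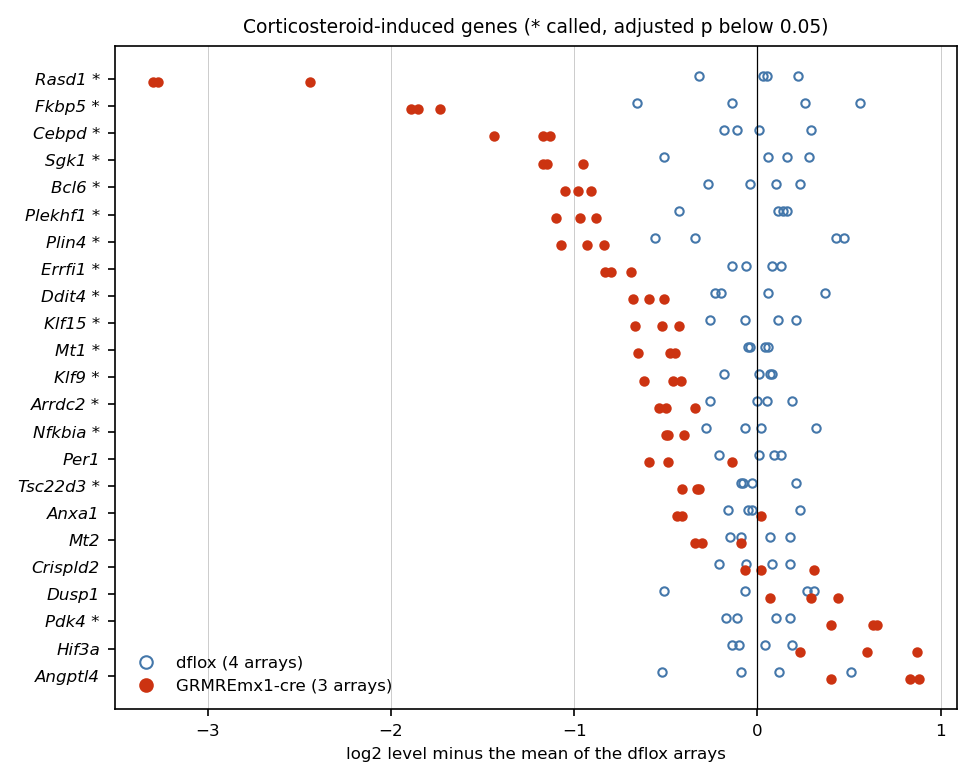
Log2 level of each tested corticosteroid-induced gene on each array minus the mean of the 4 dflox arrays, for dflox (open blue circles) and GRMREmx1-cre (filled red circles), with called genes starred. The 3 GRMREmx1-cre arrays lie to the left of every dflox array for the 15 fallers, and to the right for Pdk4. The groups were likewise apart in 3569 of the 3716 genes called.

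Other parts of the steroid system moved both ways. Of 17 tested genes for steroid receptors, steroid metabolism and chaperones, 2 rose and 2 fell (23.5%, beside 16.3% of all genes), the fallers being Nr3c1 and Nr3c2 themselves, and the median difference was -0.08. The risers were the dim receptor genes for estrogen, Esr1 (0.69 ± 0.165, adjusted p = 0.0131), and progesterone, Pgr (0.43 ± 0.125, adjusted p = 0.0346). Esr1 was at -4.37, -4.99, -4.35 and -4.40 in dflox and -3.95, -3.69 and -3.87 in GRMREmx1-cre, and its call was lost without GRMREmx1-cre replicate 2 (0.54 to 0.75). The Pgr call did not survive the removal of dflox replicate 2, 3 or 4 or of any 1 GRMREmx1-cre array (0.36 to 0.47), nor median scaling (0.35). Without GRMREmx1-cre replicate 2, 0 members of the list rose. Of 16 circadian clock genes 3 rose, all of them dim (Bhlhe41, Per3 and Npas2, 0.36 to 0.49), and none fell (18.8% called). The Per3 call was lost without any array but dflox replicate 4 and GRMREmx1-cre replicate 3, and the Npas2 call without any array but GRMREmx1-cre replicate 2 (0.41 to 0.59 and 0.31 to 0.45). Median scaling also left 1 riser, Bhlhe41, whose other probe stood at -0.19.

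The 12 largest falls among bright genes were those of Rasd1 and Nr3c1, given above, and of the 10 genes that follow. Spink8, a serine protease inhibitor and a marker of CA1 pyramidal cells, was at 3, 2.67, 1.76 and 2.93 in dflox and at -0.94, -1.06 and -1.07 in GRMREmx1-cre, which left 8.17% of the dflox level (-3.61 ± 0.279, adjusted p = 1.35e-05). Dsp, which encodes the desmosome protein desmoplakin and marks dentate granule cells, went from 0.14, 0.26, -0.32 and 0.09 to -2.98, -2.93 and -3.01 (12.4% of dflox, adjusted p = 7.2e-07). In both genes the knockout arrays were nearly equal. Pkp2, the desmosomal plakophilin that binds desmoplakin, fell by 1.88 on the log2 scale (adjusted p = 0.000114), from 2.26, 1.86, 1.59 and 2.58 to 0.16, 0.27 and 0.16.

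Olfml2b, an extracellular matrix protein, was at 0.01, -0.20, -0.94 and 0.36 in dflox and at -2.82, -2.91 and -2.85 in GRMREmx1-cre (-2.67 ± 0.22, adjusted p = 2.53e-05). Lefty1, a secreted antagonist of Nodal in the TGF-beta family, was at 0.79, 0.65, -0.01 and 0.85 and at -1.42, -1.51 and -1.45 (-2.03 ± 0.223, adjusted p = 0.000138). Dflox replicate 3 had the lowest dflox level of Olfml2b, Lefty1, Spink8 and Dsp alike. It stayed above every GRMREmx1-cre array in each, as the choice of genes required. Wipf3, an actin regulator of the WASP-interacting family, was at 5.65, 5.61, 5.05 and 5.65 in dflox and at 3.24 and 3.41 in GRMREmx1-cre replicates 2 and 3 (-2.16 ± 0.175, adjusted p = 3.77e-05, n = 2 and 4). Its spot on GRMREmx1-cre replicate 1 carried an outlier flag and was left out.

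Cpne7, a calcium-dependent membrane-binding copine, fell by 1.74 on the log2 scale (adjusted p = 0.000201), from 4.43 to 5.11 in dflox to 2.71 to 3.24. Kcng2, a modifying subunit of voltage-gated potassium channels, fell by 1.66 (adjusted p = 9.43e-06), from 0.91 to 1.52 to between -0.42 and -0.23. Strip2 (-1.84 ± 0.387, adjusted p = 0.00644) and Lurap1l (-1.57 ± 0.204, adjusted p = 0.000356) completed the set. No array of one group entered the range of the other in any of these 4 genes, as the choice of genes required. The Strip2 call was lost when all probes of the gene were averaged.

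The largest bright rises were smaller than the largest falls. Dach1, a transcription cofactor, was at -0.32, -0.25, -0.10 and -0.52 in dflox and at 1.71, 1.54 and 1.26 in GRMREmx1-cre, a 3.49-fold rise (1.80 ± 0.126, adjusted p = 8.98e-06). Dkkl1, a secreted dickkopf-like protein, rose 3.10-fold (1.63 ± 0.151, adjusted p = 5.74e-05), from -1.52, -1.26, -1.28 and -1.5 to 0.21, 0.19 and 0.33. Both groups were tight in these genes and well apart. Rspo2, a secreted enhancer of Wnt signalling, was at 0.80, 0.81, 1.22 and 1 in dflox and at 2.16, 2.08 and 2.11 in GRMREmx1-cre (1.16 ± 0.123, adjusted p = 0.000114). Hes5, a transcription factor of the Notch pathway, was at 3.02, 2.26, 2.88 and 3.18 and at 3.83, 3.95 and 4.17 (1.15 ± 0.189, adjusted p = 0.00152).

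Pdyn, the precursor of the dynorphin opioid peptides of granule cells, was at 2.03, 2.55, 2.25 and 2.18 in dflox and at 3.72, 3.6 and 3.15 in GRMREmx1-cre (1.23 ± 0.161, adjusted p = 0.000356). Rxrg, the gamma retinoid X receptor, rose by the same amount with more spread among the controls (0.71, 0.18, 1.21 and 0.95, against 1.78, 2.20 and 2.01, adjusted p = 0.0023). The remaining bright rises were those of the keratin Krt2 (1.34 ± 0.132), the presynaptic priming factor Unc13c (1.33 ± 0.209), the hyaluronan receptor Cd44 (1.31 ± 0.187), the collagen Col22a1 (1.29 ± 0.25), the hexokinase-like Hkdc1 (1.22 ± 0.124) and the cyclin-dependent kinase Cdk18 (1.15 ± 0.107), with adjusted p between 5.74e-05 (Cdk18) and 0.00409 (Col22a1). In each of them every GRMREmx1-cre array lay above every dflox array, as the choice of genes required. All 12 bright rises and all 12 bright falls kept their call with any 1 of the 7 arrays left out.

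**Figure D3:**
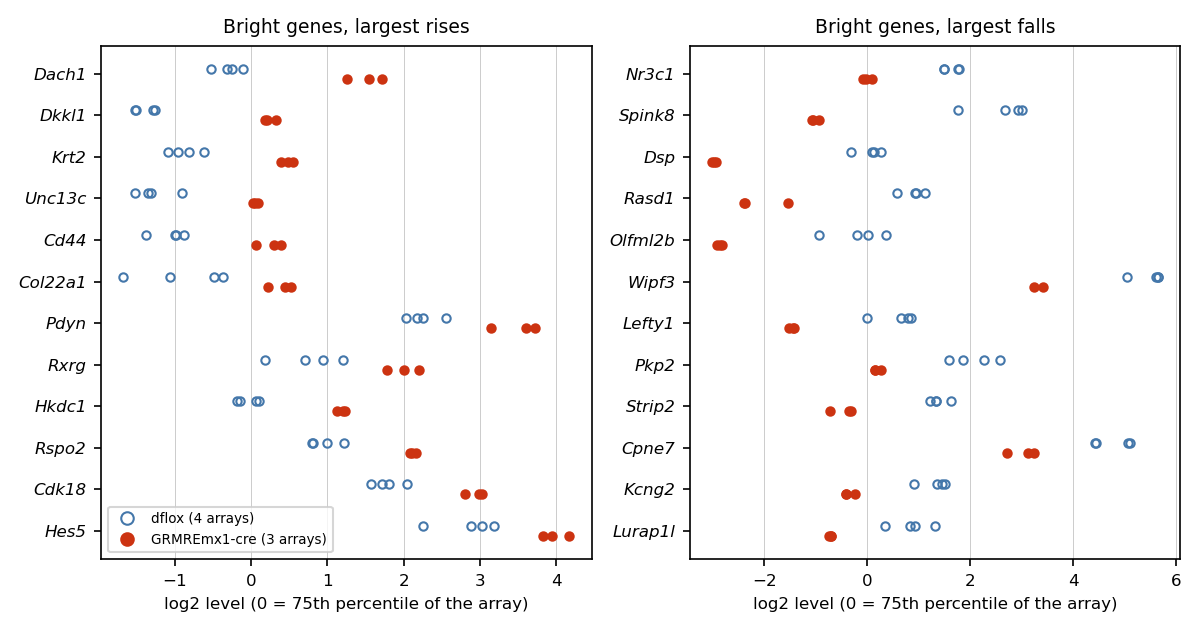
Log2 level on each array of the 12 bright genes with the largest rises (left) and the 12 with the largest falls (right), for dflox (open blue circles, 4 arrays) and GRMREmx1-cre (filled red circles, 3 arrays; 2 for Wipf3). The groups do not overlap in any of these genes, which the choice of genes required.

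The dim falls ran against the upward shift of dim genes. Etnppl, the astrocyte enzyme that breaks down phosphoethanolamine, was at 0.65, -0.42, -0.12 and 0.66 in dflox and at -4.18, -3.46 and -2.70 in GRMREmx1-cre, which left 8.05% (-3.64 ± 0.35, adjusted p = 7.36e-05). It counts as dim only through its low level in the knockouts. Gm34996, a predicted gene, fell to 8.58% (-3.54 ± 0.221, adjusted p = 3.96e-06). Grem1, a secreted antagonist of bone morphogenetic proteins, was at -2.68, -2.81, -4.32 and -2.66 in dflox and not well above background on any GRMREmx1-cre array. It fell at least 8.76-fold (adjusted p = 0.000126). Tmem215 was likewise not well above background in the knockouts and fell at least 1.80-fold (adjusted p = 7.96e-05). The membrane serine protease Tmprss6 fell to 18.3% (adjusted p = 0.000535, well above background on 2 of 3 GRMREmx1-cre arrays). The matrix protein Smoc2 fell to 25.9% (-1.95 ± 0.208, adjusted p = 0.000116), from -0.71, -0.75, -1.43 and -0.60 to -2.85, -2.47 and -3.14. Its dflox levels lay near or above the -1.43 that parts bright from dim genes, so Smoc2 too counts as dim through lower levels in knockouts.

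Of the 6 largest dim rises, that of Aldh1a3 alone came from a probe well above background on all 7 arrays. This enzyme makes retinoic acid from retinaldehyde. Its level was -4.13, -4.23, -3.22 and -3.66 in dflox and -0.43, -0.03 and -0.52 in GRMREmx1-cre, an 11.2-fold rise (3.48 ± 0.25, adjusted p = 9.43e-06). The other large dim rises came from signals close to background in the controls. The receptor gene Gpr142 rose by 3.45 ± 0.651 on the log2 scale (adjusted p = 0.00348) and was well above background on 1 of 4 dflox arrays. Olfr979 and Olfr594, both olfactory receptor genes, rose at least 2.46-fold and 3.19-fold, Otoa, which encodes otoancorin of the inner ear, at least 3.68-fold, and the secreted protein C1qtnf3 at least 3.14-fold (adjusted p = 0.00298, 0.00359, 0.00748 and 0.0189). None of these 4 was well above background on a dflox array. C1qtnf3 was not called without dflox replicate 2 or without GRMREmx1-cre replicate 2 (2.04 to 3.02). The Otoa level was -2.27 on GRMREmx1-cre replicate 1 and -5.63 and -5.36 on the other GRMREmx1-cre arrays, and without that array its difference was 1.88. Its call was lost when the 7 arrays were fitted alone.

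The markers of the excitatory cell types of the hippocampus shifted in parts rather than as a whole. In bulk RNA, fewer cells of a type and less RNA per cell cannot be told apart. Of 14 dentate granule cell markers tested, 6 fell and 2 rose, with a median difference of -0.24 (57.1% called, beside 16.3% of all genes). Calb1, the calcium buffer calbindin, fell by 1.53 on the log2 scale (adjusted p = 1.35e-05), from 3.12 to 3.66 in dflox to 1.86 to 1.91, and the dim matrix protein Npnt fell by 1.68 (adjusted p = 0.0003). Dsp fell and Pdyn rose as given above. The factor that defines granule cells, Prox1, stood at 0.00, with -2.86 to -2.54 in dflox and -2.87 to -2.46 in GRMREmx1-cre. It lies outside the naming rule and was chosen after its value was seen. Without GRMREmx1-cre replicate 2, 1 of the dentate granule cell markers rose. Of 14 CA2 pyramidal cell markers 7 fell and 0 rose, beside 4.84% and 11.4% of all genes, with a median of -0.34, and 6 or 7 of the CA2 pyramidal cell markers fell with any 1 array left out. The cell adhesion protein Amigo2 fell by 1.19 (adjusted p = 0.00212), the calcium-binding Necab2 by 1.02 (adjusted p = 0.000902), the matrix protein Vit by 0.75 (adjusted p = 0.00218) and the glutathione transferase Gsto1 by 0.34 (adjusted p = 0.00197). Rgs14, the signalling protein that marks CA2, stood at -0.04, a member outside the naming rule that was chosen after its value was seen.

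Of 7 CA3 pyramidal cell markers 3 fell and 0 rose (42.9% called, beside 16.3% of all genes, median -0.21). The largest fall was that of the scaffold protein Homer3 (-1.02 ± 0.127, adjusted p = 0.000268). The falls of the kainate receptor subunit Grik4 (-0.26) and of Ociad2 (-0.41) were called at adjusted p = 0.0314 and 0.03. Without dflox replicate 1, 2 or 4 or GRMREmx1-cre replicate 1 or 3, 1 of the CA3 pyramidal cell markers fell, and the Ociad2 call was lost without GRMREmx1-cre replicate 2 too (Grik4 -0.32 to -0.20, Ociad2 -0.48 to -0.35). The CA1 list had no common direction (30% called, beside 16.3% of all genes, median 0.04). Of 10 CA1 pyramidal cell markers, Wfs1, a protein of the endoplasmic reticulum, rose from 3.92 to 4.30 to between 4.56 and 4.72 (0.54 ± 0.107, adjusted p = 0.00469), while Spink8 and the receptor Fibcd1 (-0.32, adjusted p = 0.0283) fell. Fibcd1 was not called without dflox replicate 1 or 4 or GRMREmx1-cre replicate 1 or 3 (-0.39 to -0.24). Among 17 markers of GABAergic interneurons, which lie outside the Emx1 lineage, 1 rose and 1 fell. That is 11.8% called, below the 16.3% of all genes, with a median of 0.05. The riser was the dim nitric oxide synthase Nos1 (0.73 ± 0.0768, adjusted p = 0.000114) and the faller the neuropeptide Cck (-0.30 ± 0.0731, adjusted p = 0.0136). The Cck call was lost without GRMREmx1-cre replicate 1 (-0.35 to -0.27) and with its probes averaged (-0.22).

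Of 12 markers of adult neurogenesis, 3 rose and 0 fell (median 0.10), beside 11.4% and 4.84% of all genes. Sox11, a transcription factor of newborn neurons, was at -0.04 to 0.17 in dflox and 0.49 to 0.54 in GRMREmx1-cre (0.49 ± 0.102, adjusted p = 0.00618). Dcx, the microtubule protein doublecortin of immature neurons, rose by 0.45 (adjusted p = 0.0203), a call lost without GRMREmx1-cre replicate 1 or 3 (0.36 to 0.55). The groups did not overlap in either gene, as they did not in 3569 of the 3716 called genes.

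Genes of the glutamatergic synapse were lower by small steps. Of 17 tested, 16 of them bright, 8 fell and 0 rose, beside 7.23% and 7.77% of all bright genes, and the median was -0.22. The presynaptic scaffold bassoon, Bsn, was at 3.33 to 3.65 in dflox and 3.10 to 3.14 in GRMREmx1-cre (-0.37 ± 0.0664, adjusted p = 0.00247), and the vesicle protein synaptophysin, Syp, at 4.24 to 4.40 and 4.04 to 4.14 (-0.26 ± 0.0526, adjusted p = 0.00574). The pentraxin Nptx1, which clusters AMPA receptors, fell by 0.72 (adjusted p = 0.00122). Camk2a fell by 0.54 (adjusted p = 0.00688), though its other probe stood at 0.07 and the call was lost when the probes were averaged. Fewer of the glutamatergic synapse genes fell without single arrays: 5 without dflox replicate 1 or 2 or GRMREmx1-cre replicate 2 or 3, and 4 without dflox replicate 4. Quantile normalization also left 4.

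Receptors and channels of inhibition and excitability moved both ways. Of 12 GABA-A receptor subunits 3 rose and 1 fell (33.3%, beside 16.3% of all genes). Gabra5, the subunit of extrasynaptic receptors in hippocampal pyramidal cells, was at 1.95, 2.08, 1.86 and 1.96 in dflox and 1.28, 1.43 and 1.38 in GRMREmx1-cre (-0.60 ± 0.0881, adjusted p = 0.000788), and Gabra3 was at -0.33, -0.55, -0.21 and -0.34 and 0.05, 0.11 and 0.22 (0.49 ± 0.0988, adjusted p = 0.00532). The calls of the other risers, Gabrg1 (0.42) and Gabrb2 (0.20), rested on single arrays. That of Gabrg1 was lost without dflox replicate 1, 2 or 4 or GRMREmx1-cre replicate 2 or 3 (0.37 to 0.52). That of Gabrb2 was lost without any array but dflox replicate 2 (0.18 to 0.23). The Gabrb2 call was also lost with its probes averaged, its other probes being at -0.02 and 0.16. Without dflox replicate 1 or 4 or GRMREmx1-cre replicate 2 or 3, and with median scaling, 1 of the GABA-A receptor subunits rose. Of 23 potassium and HCN channel genes 2 rose and 1 fell, a share of 13% that is near the 16.3% of all genes. The small-conductance channel Kcnn2 fell by 0.56 (adjusted p = 0.000667), and the background channel Kcnk9 (0.49, adjusted p = 0.00809) and the G-protein-gated Kcnj9 (0.35, adjusted p = 0.00929) rose, neither of which was called when the 7 arrays were fitted alone. Without dflox replicate 3, 3 of the potassium and HCN channel genes fell.

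Of 15 voltage-gated calcium channel subunits 3 fell and 1 rose (26.7% called, beside 16.3% of all genes, median 0.00). The auxiliary subunit Cacnb2 fell by 0.53 (adjusted p = 0.00578) and the T-type pore Cacna1h by 0.40 (adjusted p = 0.0167), and the auxiliary subunit Cacnb4 rose by 0.29 (adjusted p = 0.00951). The other Cacnb2 probe stood at -0.03 (limma's unadjusted p = 0.723), though the Cacnb2 call stayed when the probes were averaged. The Cacna1h and Cacnb4 calls were lost without GRMREmx1-cre replicate 3 (-0.48 to -0.33 and 0.22 to 0.37) and when their probes were averaged (-0.19 and 0.05). Without that array, 1 of the voltage-gated calcium channel subunits fell and 0 rose. Among opioid and stress peptides, Penk, the enkephalin precursor, was at 3.11, 3.12, 2.86 and 3.04 in dflox and 1.99, 1.76 and 2.28 in GRMREmx1-cre (-1.02 ± 0.196, adjusted p = 0.00384), the single call among 13 genes (7.69%, below the 16.3% of all genes). Pdyn, the other opioid precursor described here, rose. Of 10 serotonin receptor genes tested, 9 of them dim, 2 fell and 0 rose (20% called, beside 16.3% of all genes). The fallers were Htr5b (-0.64 ± 0.141, adjusted p = 0.00832) and Htr4 (at least 1.19-fold lower, adjusted p = 0.0423). Htr4 was no longer called without dflox replicate 1, 2 or 4 or any 1 GRMREmx1-cre array (-1.05 to -0.70). Of 24 activity-regulated genes, which neuronal firing induces within minutes, 2 fell and 0 rose (8.33% called, median -0.06). These were the prostaglandin synthase Ptgs2 (-1.03 ± 0.127, adjusted p = 0.00026) and the neurotrophin Bdnf (-0.34, adjusted p = 0.0471), which was no longer called without dflox replicate 1, 2 or 4 or GRMREmx1-cre replicate 2 or 3 (-0.41 to -0.26) or with its probes averaged (-0.35).

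Lists of secreted signals and their receptors held members that rose and members that fell. Retinoic acid is made by aldehyde dehydrogenases and acts through RAR and RXR receptors. Of 16 genes of this pathway 3 rose and 2 fell (31.2% called, beside 16.3% of all genes; median 0.09). Beside Aldh1a3 and Rxrg, the receptor Rarb rose from between -0.91 and -0.65 to between -0.35 and -0.27 (0.46 ± 0.0744, adjusted p = 0.00136), and the related synthetic enzyme Aldh1a1 fell from 2.60 to 3.12 to between 2.11 and 2.23 (-0.69 ± 0.122, adjusted p = 0.00247). The other faller was the binding protein Crabp1 (-0.86), named outside the rule after its value was seen, which was lost without dflox replicate 1 or 2 or GRMREmx1-cre replicate 1 or 3, so that 1 gene of the retinoic acid pathway fell.

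Of 20 genes of the BMP and TGF-beta pathway, 7 fell and 4 rose (55% called, beside 16.3% of all genes), with a median of -0.08. The fallers included Grem1 and Lefty1, given above. The decoy receptor Bambi was at 0.17 to 0.72 in dflox and -0.71 to -0.41 in GRMREmx1-cre (-0.92 ± 0.118, adjusted p = 0.000314), and the ligand Tgfb2 at 0.82 to 1.04 and 0.10 to 0.32 (-0.71 ± 0.11, adjusted p = 0.00105). The other called members lie outside the naming rule and were added after their values were seen. Chrd (-0.39), Fst (-1.01) and Nbl1 (-0.45), which encode antagonists of the pathway, fell, whereas the antagonist Nog (0.69), the ligands Bmp3 (1.59) and Tgfb1 (0.24) and the target Id3 (0.42) rose. Antagonists and ligands thus stood among both the fallers and the risers. Without dflox replicate 1 or 2 or GRMREmx1-cre replicate 2, 2 genes of the BMP and TGF-beta pathway rose. Of 27 axon guidance genes 7 fell and 6 rose (48.1% called, median -0.07), and members of 1 family went opposite ways. The repellent ligand Slit1 fell from between -0.19 and 0.22 to between -0.78 and -0.70 (-0.75 ± 0.0899, adjusted p = 0.000225), whereas Slit2 rose from 1.07 to 1.61 to between 2.04 and 2.39 (0.96 ± 0.121, adjusted p = 0.0003). The semaphorin Sema5a fell by 0.75 (adjusted p = 0.000203), and the netrin receptor Dcc rose by 0.62 (adjusted p = 0.00018). The Sema5a call was lost when its probes were averaged (-0.40). Median scaling left 3 risers among the axon guidance genes.

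Astrocyte markers moved both ways. Of 14 astrocyte markers 3 rose and 2 fell (35.7%, beside 16.3% of all genes), with a median of 0.06. The water channel Aqp4 rose from 1.31 to 1.69 to between 2.16 and 2.31 (0.76 ± 0.11, adjusted p = 0.000747), the gap junction protein Gja1 from 0.95 to 1.06 to between 1.25 and 1.52 (0.37 ± 0.0744, adjusted p = 0.00482), and the calcium-binding S100b by 0.34 (adjusted p = 0.00525), a call that median scaling ended. Aldoc, the astrocyte aldolase, fell from 6.20 to 6.46 to between 5.68 and 5.85 (-0.54 ± 0.0843, adjusted p = 0.00107). Without GRMREmx1-cre replicate 1, 5 of the astrocyte markers rose. Of 11 reactive astrocyte genes tested 5 rose and 1 fell (54.5% called), with a median of 0.03. S100a10 was at 1.94 to 2.06 in dflox and 2.94 to 3.22 in GRMREmx1-cre (1.06 ± 0.0898, adjusted p = 3.08e-05), Osmr, the oncostatin M receptor, at -1.06 to -0.84 and -0.09 to 0.00 (0.86 ± 0.109, adjusted p = 0.000304), and Cd44 rose as given above. The intermediate filament Gfap rose from 2.8 to 3 to between 3.16 and 3.42 (0.43 ± 0.101, adjusted p = 0.0114), a call lost without GRMREmx1-cre replicate 2 (0.38 to 0.51) and with median scaling. Without GRMREmx1-cre replicate 2, and also with median scaling, 3 of the reactive astrocyte genes rose. The faller of the reactive astrocyte genes was not called without dflox replicate 1 or GRMREmx1-cre replicate 1 or 3, and 2 fell without dflox replicate 3.

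Microglia, which descend from the yolk sac and do not express Emx1-Cre, had higher marker levels in the knockouts. Of 18 homeostatic microglia markers 11 rose and 1 fell, against 11.4% and 4.84% of all genes, and the median was 0.35. The mean level of the list was 0.35 to 0.45 on the dflox arrays and 0.65 to 0.82 on the GRMREmx1-cre arrays. Of these markers 15 are bright, and 17 of 18 lay above 0. Gpr34, a lysophosphatidylserine receptor, was at -1.11 to -0.95 in dflox and -0.57 to -0.41 in GRMREmx1-cre (0.52 ± 0.0595, adjusted p = 0.000177). Trem2, a lipid-sensing receptor, was at 2.10 to 2.35 and 2.67 to 2.79 (0.51 ± 0.0726, adjusted p = 0.000655). The Fc receptor-like Fcrls rose by 0.65 (adjusted p = 0.00107) and the cytoskeletal protein Aif1, known as IBA1, by 0.54 (adjusted p = 0.00266). Fewer of the homeostatic microglia markers rose without GRMREmx1-cre replicate 2 (5) and with median scaling (7), and the single faller was not called without dflox replicate 1 or any 1 GRMREmx1-cre array.

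Of 11 activated microglia genes tested, 9 of them dim, 4 rose and 0 fell, beside 15.1% and 2.44% of all dim genes (median 0.34 against 0.13). The lysosomal protein Cd68, a bright gene, was at -1.47 to -1.29 in dflox and -1.03 to -0.70 in GRMREmx1-cre (0.52 ± 0.0884, adjusted p = 0.00182). The dim cystatin Cst7 was not well above background on any dflox array and rose at least 4.47-fold (adjusted p = 3.76e-05). The dim integrin Itgax, well above background on 3 of 4 dflox arrays, was at -6.51 to -5.03 and -3.54 to -3.12 (2.17 ± 0.377, adjusted p = 0.00212). The fourth, Cybb (0.62, adjusted p = 0.0471), rested on dflox replicates 2, 3 and 4 and on each GRMREmx1-cre array (0.46 to 0.74 with 1 array left out). Of 12 complement and MHC genes 4 rose and 0 fell (33.3% called, beside 16.3% of all genes). Those that rose were all complement genes: the C1q chains C1qa (0.40), C1qb (0.51) and C1qc (0.50), which microglia make, and C4b (0.51), with adjusted p from 0.000795 to 0.00595. The median of the list was 0.02.

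Among 15 chemokines and their receptors 4 rose and 1 fell (33.3% called, beside 16.3% of all genes, median 0.22). The neutrophil chemokine Cxcl5 was at -3.16, -2.91, -2.01 and -3.49 in dflox and at -0.68, -0.24 and -0.02 in GRMREmx1-cre (2.58 ± 0.423, adjusted p = 0.00149), and Ccl4 at -4.35, -4.27, -4.39 and -4.60 and at -3.03, -3.04 and -3.52 (1.21 ± 0.183, adjusted p = 0.000939). Ackr3, a scavenger receptor for CXCL12, fell from 0.83, 0.72, 0.68 and 0.67 to 0.03, -0.23 and 0.03 (-0.78 ± 0.0808, adjusted p = 0.000102). Without GRMREmx1-cre replicate 2, and with median scaling, 2 of the chemokines and receptors rose, and without GRMREmx1-cre replicate 3, 2 fell. Of 17 interferon-stimulated genes 2 rose (11.8%, beside 11.4% of all genes) and 0 fell (median 0.11), the antiviral gene Ifit3 (1.09 ± 0.148, adjusted p = 0.000452) and the guanylate-binding protein Gbp3 (0.46, adjusted p = 0.0301), which lost its call without dflox replicate 3 or 4 or any 1 GRMREmx1-cre array (0.39 to 0.52).

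Enzymes of metabolism held a few large single changes. Of 11 cytochrome P450 genes tested 4 fell and 2 rose (54.5% called, beside 16.3% of all genes, median -0.14). The list was chosen with earlier results of these data known, so this share only describes the genes chosen. Cyp4f15, a fatty acid hydroxylase, was at -0.16 to 0.37 in dflox and -1.56 to -1.17 in GRMREmx1-cre (-1.44 ± 0.159, adjusted p = 0.000142), and the dim Cyp2c23 rose at least 2.19-fold (adjusted p = 0.000672). The falls of Cyp2d22 (-0.37) and Cyp2j9 (-0.33) were lost without GRMREmx1-cre replicate 3 and replicate 1 (-0.44 to -0.27 and -0.38 to -0.24), and that of Cyp2d22 with its probes averaged (-0.23). Without GRMREmx1-cre replicate 1 or 2, 1 of the cytochrome P450 genes rose, and without replicate 3, 2 fell. Of 18 genes of fuel and lipid metabolism, Etnppl, the acyl-CoA synthetase Acsl3 (-0.42, adjusted p = 0.00704) and the glycogen phosphorylase Pygb (-0.26, adjusted p = 0.0359) fell and the hexokinase Hk2 rose (0.46, adjusted p = 0.00674). Pygb was not called without dflox replicate 2, 3 or 4 or GRMREmx1-cre replicate 1 or 3 (-0.31 to -0.22). Of the fuel and lipid metabolism genes 22.2% were called, beside 16.3% of all genes, and their median was -0.06.

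Markers of choroid plexus, of ependyma and of meningeal and perivascular fibroblasts had list medians below 0. Markers of thalamus and habenula (median 0.07) and of striatum and neocortex (0.23), described further below, did not. All 13 choroid plexus markers lay below 0, with a median of -0.59, and 0 were called. The mean level of the list was 0.27 to 1.80 on the dflox arrays and 0.06 to 0.58 on the GRMREmx1-cre arrays. Of 6 ependymal markers, with a median of -0.56, the cilium gene Ccdc153 fell (-1.36 ± 0.273, adjusted p = 0.00497), and 2 of the ependymal markers fell without GRMREmx1-cre replicate 3. Of 11 meningeal and perivascular fibroblast markers (27.3% called, beside 16.3% of all genes, median -0.26) the proteoglycan Ogn (-0.90, adjusted p = 0.00511) and the collagen Col1a2 (-0.38, adjusted p = 0.0459) fell and decorin, Dcn (0.84, adjusted p = 0.0439), rose. Col1a2 lost its call without dflox replicate 1, 3 or 4 or any 1 GRMREmx1-cre array (-0.44 to -0.33), and Dcn without dflox replicate 1 or any 1 GRMREmx1-cre array (0.58 to 0.96). The part of these tissues in the changes of other lists was not tested.

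**Figure D4:**
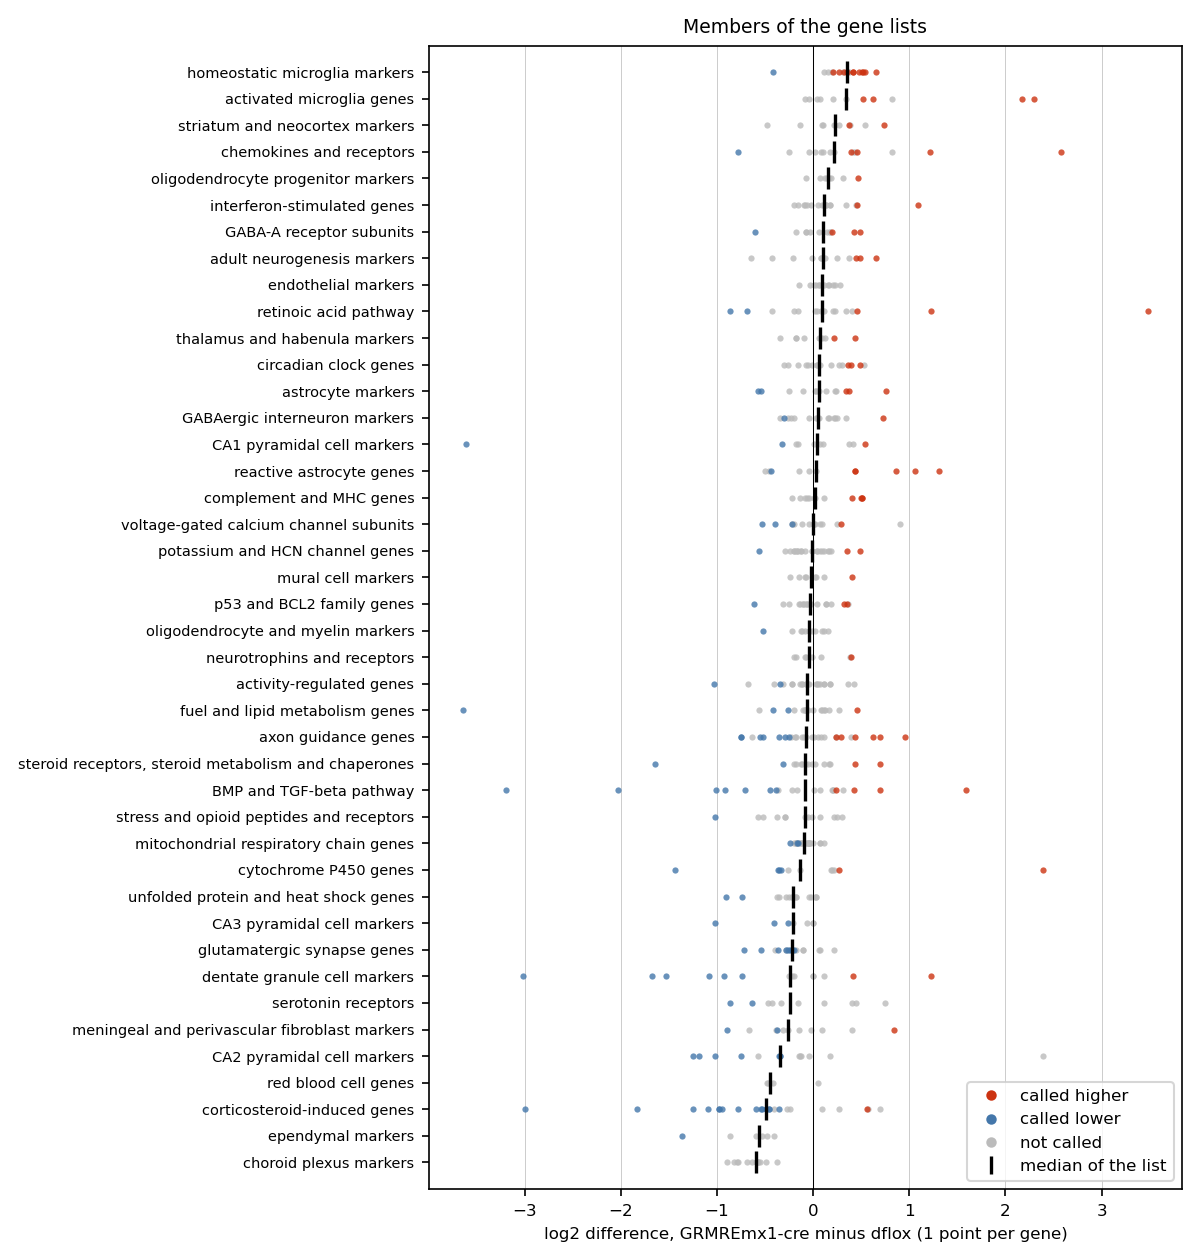
Log2 difference, GRMREmx1-cre minus dflox, of each tested member of the 42 gene lists (1 point per gene; red called higher, blue called lower, grey not called), with the median of each list as a black bar and the lists in order of it. The medians run from -0.59 (choroid plexus markers) and -0.49 (corticosteroid-induced genes) to 0.35 (homeostatic microglia markers).

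The named changes were set beside those of the single knockouts. GREmx1-cre and MREmx1-cre were compared with the same dflox arrays, so their differences share those controls. In these comparisons 3.15% (GREmx1-cre) and 6.81% (MREmx1-cre) of all genes were called. The labels do not give whether either genotype carries a floxed allele of the receptor it keeps. Nr3c1 stood at -2.24 in GREmx1-cre, 0.54 in MREmx1-cre (adjusted p = 0.00165) and -1.64 after joint loss, and it was 0.60 ± 0.0838 higher after joint loss than after GR loss alone (adjusted p = 0.000646). Nr3c2 stood at 0.42 (adjusted p = 0.0212), -0.11 (adjusted p = 0.48) and -0.31. Spink8 stood at 0.21 in GREmx1-cre, -2.19 in MREmx1-cre and -3.61 after joint loss. Dsp stood at -0.09, -2.48 and -3.02, and Rasd1 at -0.01, -1.58 and -3. Etnppl had another order, with -3.11 in GREmx1-cre, -1.13 in MREmx1-cre (adjusted p = 0.0563) and -3.64 after joint loss. Among rises, Dach1 stood at 0.00, 1.47 and 1.80, Aldh1a3 at -0.15, 2.88 and 3.48, and Hkdc1 at 0.00, 1.22 and 1.22. The mean of the corticosteroid-induced genes relative to dflox was -0.57, -0.56 and -0.56 on the GRMREmx1-cre arrays. It was -0.61, -0.42, -0.30 and -0.46 on the MREmx1-cre arrays, and -0.34, -0.19, -0.15 and -0.05 on the GREmx1-cre arrays. The fall of this list was thus not particular to joint loss.

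The difference between joint loss and MR loss alone was tested directly, a comparison in which 2.98% of all genes were called. Rasd1 was lower by a further 1.42 on the log2 scale in GRMREmx1-cre than in MREmx1-cre (adjusted p = 0.00449), Spink8 by 1.42 (adjusted p = 0.0174) and Lefty1 by 0.98 (adjusted p = 0.035). Etnppl was lower by 2.51 (adjusted p = 0.00256) and Cyp4f15 by 1.52 (adjusted p = 0.000432). Cxcl5 was higher by 2.92 (adjusted p = 0.00315) and S100a10 by 1.12 (adjusted p = 6.23e-05). Dsp, Dach1, Aldh1a3 and Olfml2b were not called in that comparison. The difference between joint loss and GR loss alone was called for these 4 (adjusted p = 1.04e-06, 9.23e-06, 7.69e-06 and 1.72e-05), where 16.1% of all genes were called, and not for Etnppl.

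**Figure D5:**
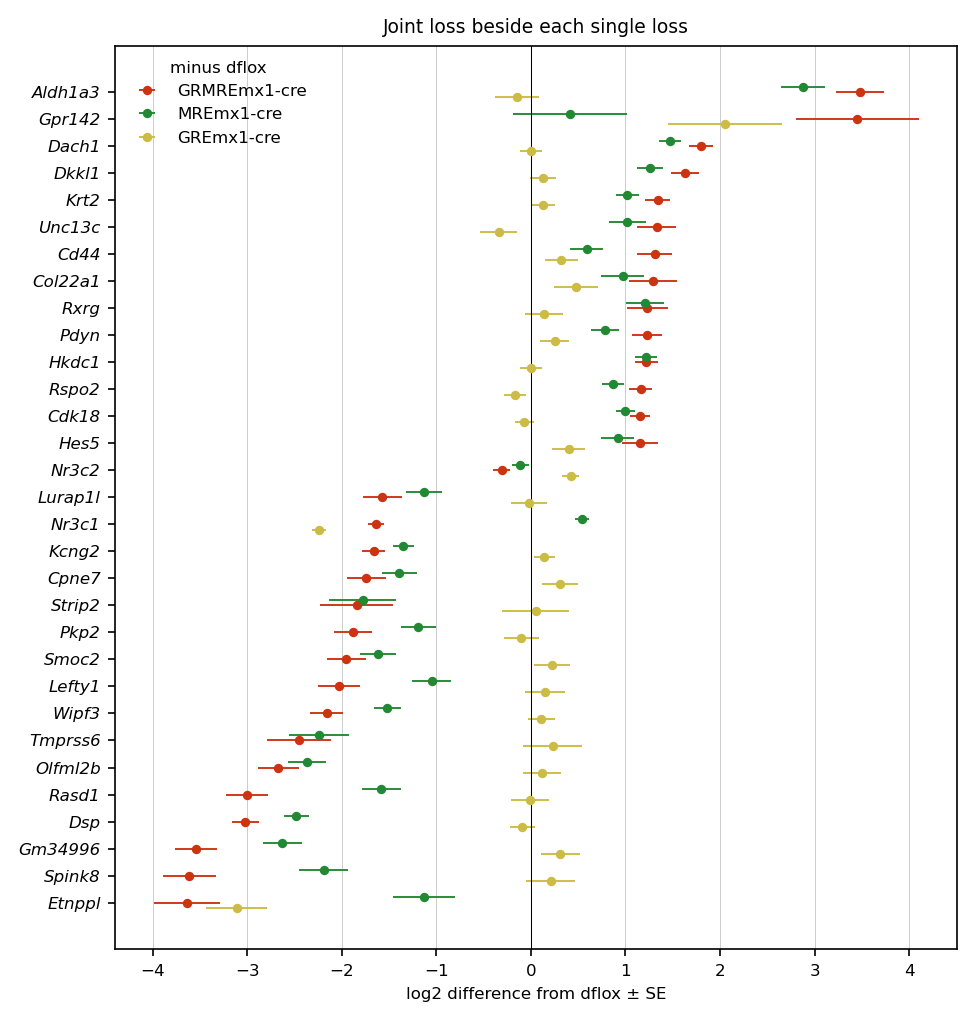
Log2 difference from dflox ± SE of the receptor genes and of the bright and dim genes with the largest changes whose fold is not only a bound, in GRMREmx1-cre (red), MREmx1-cre (green) and GREmx1-cre (yellow), all against the same 4 dflox arrays. Spink8 stands at -3.61, -2.19 and 0.21, and Etnppl at -3.64, -1.13 and -3.11.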

How the data were processed

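RNA of whole hippocampus was hybridised to 1-colour Agilent arrays, 1 array per mouse. The deposited intensities are processed signals that Agilent Feature Extraction 12.0 had background-subtracted and detrended, without scaling between arrays, per the file headers. The deposited flags of that software (other values, 0 or 1) mark saturation, outliers and signal well above background, per the file headers. The authors' deposited value table was equal to the scanner files at all 45018 spots.

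Of 43379 non-control spots per array, outlier spots were left out (1281 over 15 arrays). Intensities were scaled to the 75th percentile of each array, log2 transformed and averaged per probe. Probes well above background on at least 3 of the 15 arrays were kept (30873 of 41174), and the probe with the highest mean stood for its gene, which gave 22864 genes, 15939 with a symbol and the rest under the identifier of the array's design. No spot was saturated. A 4-group model was fitted to all 15 arrays with limma 3.58.1 in R 4.3.3 (lmFit, eBayes, 11 residual degrees of freedom), and p-values were adjusted by Benjamini-Hochberg over all genes, with a threshold of 0.05. All adjusted p in the text come from these fits. An exact 2-sided permutation test of 3 against 4 arrays cannot go below 0.0571, and the small number of arrays limits the precision.

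Where no array of a group was well above background, the fold is a bound: the bright group's mean against, on each dim array, the probe's own signal or, where higher, the faintest signal of that array that was well above background. Named were the receptors, the 12 largest bright rises and 12 largest falls and the 6 and 6 largest dim ones among called genes with a symbol, groups that did not overlap and signal well above background in the brighter group, up to 4 called members of each list, and every tested corticosteroid-induced gene. For a list with fewer than 2 called members, up to 2 further members are given as values. Some genes that the rule names are not reported here. The comparison, lists and rules were chosen with earlier results of these data known. Promoter windows are from RefSeq, build GRCm38.p6. The scripts were tested on simulated data.

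Alternatives were the fit of the 7 arrays alone, the replicate number as a block, median, quantile and other percentile scaling, other filters, the mean of a gene's probes, the deposited table with all spots, a variance trend and each array left out. Normexp used the median spot signal and the median local background, in place of the mean spot signal. Chosen after seeing the data were cyclic loess, normexp with 1 median local background per array, and the fits without GREmx1-cre replicate 1 and without MREmx1-cre replicate 2. Replicate numbers match the position on the slide. Across genes, same-numbered dflox and GRMREmx1-cre arrays deviated together at r = 0.07, 0.02 and 0.11, and differently numbered ones at -0.09 to 0.02. The same-numbered values were higher or equal but small, and the numbers were not taken as pairs in the main fit. The fit with the replicate number as a block is given below.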

Additional observations from a re-analysis of the deposited data

Results flagged for a closer look

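Single control arrays stood apart from the other 3 dflox arrays in 11 of the 178 named genes and in 2 of the 42 list means, judged by Dixon's test, which chance alone meets in about 1 in 20 groups. Dflox replicate 3 was low for Wipf3 (level 5.05, against 5.61 to 5.65), Grem1 (-4.32, against -2.81 to -2.66) and Grik4 (3.64, against 3.87 to 3.92) and high for Gabrg1 (0.92, against 0.52 to 0.56). Dflox replicate 4 was high for Hspa1b, an inducible heat shock protein (1.17, against -0.35 to -0.12), for Olfr979 (-6.67, against -8.57 to -8.34) and for Sox11 (0.17, against -0.04 to -0.01). It was low for Plekhf1 (-1.75, against -1.21 to -1.16) and for the myelin protein Mal (2.24, against 2.49 to 2.52). The mean level of the unfolded protein and heat shock genes was also high on that array (2.08, against 1.48 to 1.58). Dflox replicate 2 was low for Esr1 (-4.99, against -4.40 to -4.35). Dflox replicate 1 was low for Gpr34 (-1.11, against -0.98 to -0.95) and high for the mean level of the mural cell markers (1.30, against 1.17 to 1.18).

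The interaction term of the limma fit was called for 4 of the genes described, and for 1.29% of all genes. The interaction is the joint change minus the sum of both single changes. It was -1.41 for Rasd1 (adjusted p = 0.0448), -0.62 for Nr3c2 (adjusted p = 0.0394), -0.37 for Syp (adjusted p = 0.031) and 0.51 for Gpr34 (adjusted p = 0.013). All 4 genotypes and therefore all 4 slides enter this term, so that it cannot be told apart from effects of slide. The genes described were chosen largely by their joint change, which also enters the term.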

How the results depend on the processing

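Over the alternatives run, the values of the 178 named genes kept direction and side of the threshold 3714 times, lost the call 298 times, gained one 45 times and reversed 16 times, and list medians moved by more than the spread between replicates 104 times and by less 862 times. All reversals came from normexp with each spot's local background. This setting called 14111 genes, 3839 bright and 10272 dim. It gave 0.96 for Nr3c2, 0.49 for Grem1, 1.33 for Tmem215, 0.61 for Tmprss6, 0.91 for Npnt, 0.39 for Cyp2d22, 0.26 for Ptgs2, -0.05 for S100b, -0.11 for Gabrb2, 0 for Amigo2, 0.19 for Cacnb2, -0.16 for Cacnb4, 0.01 for Htr5b, 1.55 for Htr4, 0.43 for Arrdc2 and 0.02 for Plekhf1. On the 3 GRMREmx1-cre arrays 4, 8 and 8 spots had a local background above 100, and the fitted background mean was -30.6, -804 and -107, against -0.331 to 2.42 on the other 12 arrays. The highest local background on those GRMREmx1-cre arrays was 1047, 65528 and 2423. GREmx1-cre replicate 1 had 25 spots above 100, the highest with a local background of 158, and a fitted mean of 2.28. With 1 median local background per array 3583 genes were called. With 1 of the 7 arrays left out, 2265 to 3473 genes were called, 1000 to 1666 bright and 1265 to 1807 dim. Left out after seeing the data, GREmx1-cre replicate 1 gave 3897 calls (1737 bright, 2160 dim) and MREmx1-cre replicate 2 gave 3633. The replicate block called 3833 genes, of which 3298 were among the 3716, and it ended the calls of Nr3c2, Pgr, Fibcd1, Cybb, Ociad2, Gabrg1, Dcn, Col1a2, Plin4, Hspa1a and Hspa1b and added those of Hif3a and Gpr17 among the genes described. Fitting the 7 arrays alone called 3042 genes and ended the calls of Kcnk9, Kcnj9, Otoa, Dcx, Grik4 and Nfkbia, among others. Median scaling moved the median of all genes from 0.03 to -0.05 and lowered the share of rises among the calls to 47.34%. The causes of these differences were not tested.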

Other observations

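Each list of oligodendrocyte and vessel cell markers held 0 or 1 call, beside 16.3% of all genes. Of 12 oligodendrocyte and myelin markers tested 1 fell and 0 rose (median -0.04), the raft protein Mal, from 2.24 to 2.52 in dflox to between 1.81 and 2 in GRMREmx1-cre (-0.52 ± 0.11, adjusted p = 0.00682). Of 8 oligodendrocyte progenitor markers 7 lay above 0 (median 0.15), and the list mean ran from -0.69 to -0.47 in dflox and from -0.43 to -0.41 in GRMREmx1-cre. The groups thus did not overlap in this mean, as in the means of several other lists. The single call was that of the dim proteoglycan versican, Vcan (0.47 ± 0.0772, adjusted p = 0.00152), which rose, and the receptor Gpr17 stood at 0.31 (adjusted p = 0.0718). Of 12 endothelial markers 0 were called (median 0.09), and the list mean ran from 0.46 to 0.49 in dflox and from 0.51 to 0.69 in GRMREmx1-cre. Of 8 mural cell markers the receptor Notch3 rose (0.40 ± 0.0879, adjusted p = 0.00809), a call that median scaling ended. Markers of other brain regions, some of which border the hippocampus, were measured in both groups, and 6 of 11 striatum and neocortex markers and 7 of 10 thalamus and habenula markers were bright. The mean level of the striatum and neocortex markers was -1.91 to -1.65 in dflox and -1.82 to -1.48 in GRMREmx1-cre, where the signalling protein Rgs9 rose by 0.74 (adjusted p = 0.00553), with 18.2% of the list called and a median of 0.23. The adenosine receptor Adora2a was called higher (0.37, adjusted p = 0.00353), but its other probe stood at -0.30 (limma's unadjusted p = 0.0468) and the mean of its probes at 0.04, so the gene has no single direction here. The mean level of the thalamus and habenula markers was -0.95 to -0.86 in dflox and -0.95 to -0.77 in GRMREmx1-cre, with 20% called and a median of 0.07. The transcription factor Tcf7l2 rose by 0.44 (adjusted p = 0.00119), though its other probes stood at -0.09 and 0.31, and Lef1, a related factor of Wnt signalling, by 0.22 (adjusted p = 0.0204), a call lost without dflox replicate 2 or GRMREmx1-cre replicate 2 or 3 (0.17 to 0.26), with median scaling and with its probes averaged (0.07). The part of dissection in these values was not tested. Red blood cell genes stood lower without a call, with Hba-a1 at -0.47 (adjusted p = 0.258) and Hbb-bt at -0.42 (adjusted p = 0.292).

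The shares of cell stress and survival genes that were called lay near the 16.3% of all genes. Of 21 genes of the p53 and BCL2 families 2 rose and 1 fell (14.3%, median -0.03). Sesn1, a stress-induced regulator of mTOR, was at 3.02 to 3.26 in dflox and 2.47 to 2.56 in GRMREmx1-cre (-0.62 ± 0.0798, adjusted p = 0.000342). The survival gene Bcl2 rose by 0.35 (adjusted p = 0.01), a call lost without GRMREmx1-cre replicate 2, and the death gene Bbc3 by 0.32 (adjusted p = 0.0169), a call lost without GRMREmx1-cre replicate 1 or 2. Median scaling left 0 risers in the p53 and BCL2 family genes. Of 16 unfolded protein and heat shock genes 2 fell and 0 rose (12.5%, median -0.21), Hspa1a (-0.74, adjusted p = 0.0398) and Hspa1b (-0.91, adjusted p = 0.0409). Both were highest on dflox replicate 4, and 0 of the unfolded protein and heat shock genes fell without any 1 GRMREmx1-cre array. Of 24 mitochondrial respiratory chain genes 3 fell and 0 rose, all by small amounts (Atp5b -0.24, Atp5c1 -0.17 and Sdhc -0.16). The count of falls among the mitochondrial respiratory chain genes was 6 with median scaling and 0 with quantile normalization, and 1 without dflox replicate 2 or any 1 GRMREmx1-cre array. Of 8 neurotrophins and receptors tested the dim ligand Gdnf rose (0.39 ± 0.0848, adjusted p = 0.00769), a call that quantile normalization ended.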
